A study of Homo sapiens with 4 samples.

Results

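The 8 genes described here are copies with some near-identical transcripts, carried by segmental duplications of the short arm of chromosome 16. These are BOLA2 and BOLA2B, and the NPIPB genes NPIPB3, NPIPB4, NPIPB5, NPIPB11, NPIPB12 and NPIPB13. They were chosen on measured values, since BOLA2 and NPIPB13 were lower with shDDX52 in both cell lines, and the other 6 were added as copies of the same families. They are 8 of the 60671 genes listed, and all 8 reached 1 TPM (a length-corrected share of all transcripts in a library) in each of the 4 libraries. The libraries came from 22RV1 and PC3, both established human prostate carcinoma lines, transduced with lentivirus carrying a control shRNA (shCON) or an shRNA against DDX52 (shDDX52) and selected with puromycin as stable transformants. DDX52 encodes a DEAD-box RNA helicase. Each condition had 1 library, so no difference below has a replicate check, no p-value or error can be given, and every value describes these libraries alone. TPM carries no information on sequencing depth, and read numbers are not known.

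BOLA2 and BOLA2B encode the same small cytosolic protein of the BolA family, which pairs with the glutaredoxin GLRX3 and takes part in iron-sulfur cluster assembly, handing clusters to CIAPIN1. The NPIP genes (nuclear pore complex interacting protein family) form a family that expanded on chromosome 16 of apes, and the function of most copies is poorly known. Copies of this kind flank a region of chromosome 16 that is recurrently deleted or duplicated, and short reads from one copy often match the others equally well, so a program that counts reads has to drop, split or assign them.

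The sequences show how little separates some transcripts of the copies. By GENCODE 29 on GRCh38, BOLA2 (ENSG00000183336) lies on the minus strand at chr16:29443056-29454964 and BOLA2B (ENSG00000169627) on the minus strand at chr16:30192934-30194306. The protein-coding transcripts BOLA2-201 and BOLA2B-201 both have 3 exons and 1012 bases, and they differed at 0 bases. Their second coding exon is shown from both genes because it carries part of the protein and is the same in 8 transcripts of 3 genes, the third being the readthrough gene BOLA2-SMG1P6. The exon lies at chr16:29454016-29454113 in BOLA2 and at chr16:30193358-30193455 in BOLA2B. The splice junctions are shown because they are where transcripts part: lower case marks the last 15 bases of the upstream exon and capitals the first 15 of the downstream exon.
BOLA2 exon: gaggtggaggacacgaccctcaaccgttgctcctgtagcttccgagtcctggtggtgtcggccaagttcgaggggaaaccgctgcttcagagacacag
BOLA2B exon: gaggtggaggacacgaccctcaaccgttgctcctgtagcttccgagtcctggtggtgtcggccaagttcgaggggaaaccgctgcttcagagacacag
BOLA2-201 and BOLA2B-201 junction: gcttcagagacacagGCTGGTGAACGCGTG
BOLA2-202 junction: gagcgacagaaatgaGTGTTTTGCTCGGCA
BOLA2-SMG1P6-203 junction: gcttcagagacacagCTTGGATCCTAGCAT
The first junction occurs in 5 transcripts, of BOLA2 and BOLA2B alone, whereas the BOLA2-202 junction occurs in 1 transcript of BOLA2 alone and the last in 1 transcript of BOLA2-SMG1P6 alone. BOLA2-202 is annotated as a target of nonsense-mediated decay, the pathway that removes transcripts with an early stop.

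The 6 NPIPB genes share a model of 6 exons and 1216 bases, of which 750 are coding. Over its 15 pairs, the transcripts differed by 0 to 12 bases, with a median of 2. NPIPB3 and NPIPB5 differed at 0 bases, NPIPB13 differed from the others by 2 to 10 bases, and NPIPB11 stood furthest away with 10 to 12. Coding bases 64 to 153 are shown because this stretch holds 5 of the 12 coding positions at which the 6 copies vary, and capitals mark a base unlike the majority.
NPIPB3 coding bases: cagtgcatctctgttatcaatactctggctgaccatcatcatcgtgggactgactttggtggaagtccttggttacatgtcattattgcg
NPIPB4 coding bases: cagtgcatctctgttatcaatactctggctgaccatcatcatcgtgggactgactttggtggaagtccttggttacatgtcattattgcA
NPIPB5 coding bases: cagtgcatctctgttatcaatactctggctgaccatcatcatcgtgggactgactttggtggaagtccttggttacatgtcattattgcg
NPIPB11 coding bases: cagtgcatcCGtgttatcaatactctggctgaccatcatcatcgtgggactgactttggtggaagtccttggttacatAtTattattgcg
NPIPB12 coding bases: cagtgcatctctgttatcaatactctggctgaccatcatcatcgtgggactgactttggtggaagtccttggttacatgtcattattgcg
NPIPB13 coding bases: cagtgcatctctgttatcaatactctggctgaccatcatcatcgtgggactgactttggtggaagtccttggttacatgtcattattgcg
NPIPB3, NPIPB5, NPIPB12 and NPIPB13 read alike over this stretch, NPIPB4 carried 1 base of its own and NPIPB11 carried 4. NPIPB3 (chr16:21402237-21448567), NPIPB4 (chr16:21834569-21880827), NPIPB11 (chr16:29381354-29404029), NPIPB12 (chr16:29483642-29505999) and NPIPB13 (chr16:30222937-30254510) lie on the minus strand and NPIPB5 (chr16:22479121-22536521) on the plus strand.

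To put a number on this, each gene's annotated transcripts were read in windows of 100 bases, and the share of windows found in no other gene was counted. The median over 19921 protein-coding genes was 100%, and 427 of them (2.14%) had under 10%. BOLA2 had 15.2% of its 1784 windows to itself, and BOLA2B 11.4% of 1458. All 272 windows that BOLA2 alone holds came from BOLA2-202, while BOLA2-201 and BOLA2B-201 had 0 windows of their own. Of the windows of BOLA2, 51.2% were also in BOLA2B and 61.9% in BOLA2-SMG1P6, which lies on the same strand over the same bases. Among the NPIPB genes the share in no other gene was 3.20% for NPIPB3, 5.64% for NPIPB12, 10.5% for NPIPB13, 18.8% for NPIPB5, 25.1% for NPIPB4 and 44.3% for NPIPB11. NPIPB13 shared 76.0% of its 4498 windows with NPIPB12 and 73.2% with NPIPB5. Pooling copies makes the sequence more their own: 84.6% of the windows of BOLA2, BOLA2B and BOLA2-SMG1P6 together, and 76.2% of those of the 6 NPIPB genes together, were in no gene outside the group. For BOLA2 and BOLA2B without the readthrough gene that share was 36.3%, and for all 24 NPIP genes it was 68.3%, below that of the 6. Each NPIPB gene shared windows with 5 to 12 genes outside both families, and BOLA2 with 8, so sums of copies do not remove all sharing. The grid of shared windows shows the families as separate blocks.

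**Figure D1:**
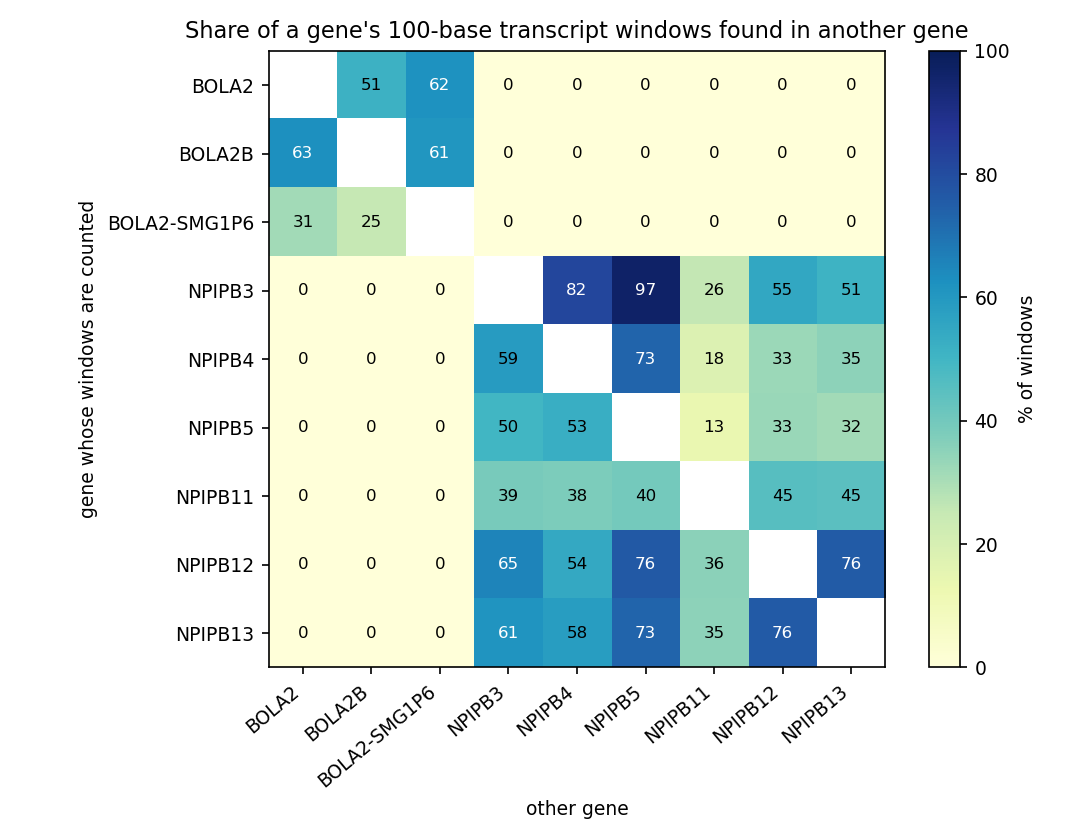
Share of each gene's 100-base transcript windows (vertical axis, colour in %) that also occur in each other gene (horizontal axis), from GENCODE 29 transcripts. BOLA2, BOLA2B and BOLA2-SMG1P6 share windows among themselves and none with the NPIPB genes, whose darkest cell is NPIPB3 in NPIPB5.

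DDX52, the target of the shRNA, was at 24.6% of its control level in 22RV1 (4.88 and 1.2 TPM, shCON first) and at 22.5% in PC3 (9.2 and 2.07 TPM). As a check of the lines, KLK3, a prostate secretory protease gene, was 6.84 and 4.51 TPM in the 22RV1 libraries, whereas both PC3 libraries listed it at 0, and CAV1 was 0.45 and 0.39 TPM in 22RV1 against 161.8 and 130.2 TPM in PC3. Of the markers of other cells, PTPRC reached at most 0.39 TPM, COL1A1 ranged from 2.81 to 8.65 TPM over the 4 libraries, and PECAM1 was 5.03 and 0.85 TPM in PC3 shCON and shDDX52 against at most 0.02 TPM in 22RV1. Genes annotated as rRNA held 1.21% and 0.0872% of the TPM in 22RV1 shCON and shDDX52, and 0.0923% and 3.13% in PC3. Their part in the values below was not tested beyond the rescaling given in the closing section. In bulk RNA, fewer cells carrying a transcript and less RNA per cell cannot be told apart.

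Of the BOLA2 pair, BOLA2B was listed with nearly all the TPM. BOLA2-201 and BOLA2B-201 differed at 0 bases, so how their reads were split between the genes cannot be told from these values. BOLA2B was 413.7 TPM in 22RV1 shCON, 491.6 TPM in 22RV1 shDDX52, 525.7 TPM in PC3 shCON and 430.9 TPM in PC3 shDDX52. It ranked 1 among the 8 genes in each library and between 284 and 370 among all genes. BOLA2 was 33.8 TPM in 22RV1 shCON, 3.03 TPM in 22RV1 shDDX52, 47.9 TPM in PC3 shCON and 10.1 TPM in PC3 shDDX52. Both shDDX52 libraries were below both shCON libraries for BOLA2, and this is the pattern for which it was chosen, while for BOLA2B the conditions overlapped. BOLA2 ranked 2 among the 8 genes in both shCON libraries, 8 in 22RV1 shDDX52 and 5 in PC3 shDDX52.

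Among the NPIPB genes, NPIPB13 was 14.9 TPM in 22RV1 shCON, 4.93 TPM in 22RV1 shDDX52, 18.9 TPM in PC3 shCON and 7.17 TPM in PC3 shDDX52, again with both shDDX52 libraries below both shCON libraries. NPIPB4, the highest of the 6 in each library, was 26.1 and 26.2 TPM in the 22RV1 libraries, shCON first, and 44.5 and 25.4 TPM in PC3. NPIPB5 followed with 18.5 and 19.5 TPM in 22RV1 and 19.2 and 14.2 TPM in PC3. NPIPB12 was 16.03 and 14.3 TPM in 22RV1 and 15.2 and 11.8 TPM in PC3, the narrowest range of the 8 genes on the log2 scale after BOLA2B. NPIPB3 was 14.4 and 16.7 TPM in 22RV1 and 17.0 and 10.01 TPM in PC3. NPIPB11, the copy with most sequence of its own, was 2.10 and 3.57 TPM in 22RV1 and 9.91 and 4.30 TPM in PC3. For NPIPB3, NPIPB4, NPIPB5 and NPIPB11 the values of the 2 conditions overlapped over the lines, with the shDDX52 library at or above its control in 22RV1 and below it in PC3. For NPIPB12 both shDDX52 libraries lay below both shCON libraries, with TPM differences of −1.78 in 22RV1 and −3.34 in PC3. The share of all genes with this ordering was not counted. For BOLA2, NPIPB13 and NPIPB12 it is thus a description only, and whether it is particular to these copies cannot be told.

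**Figure D2:**
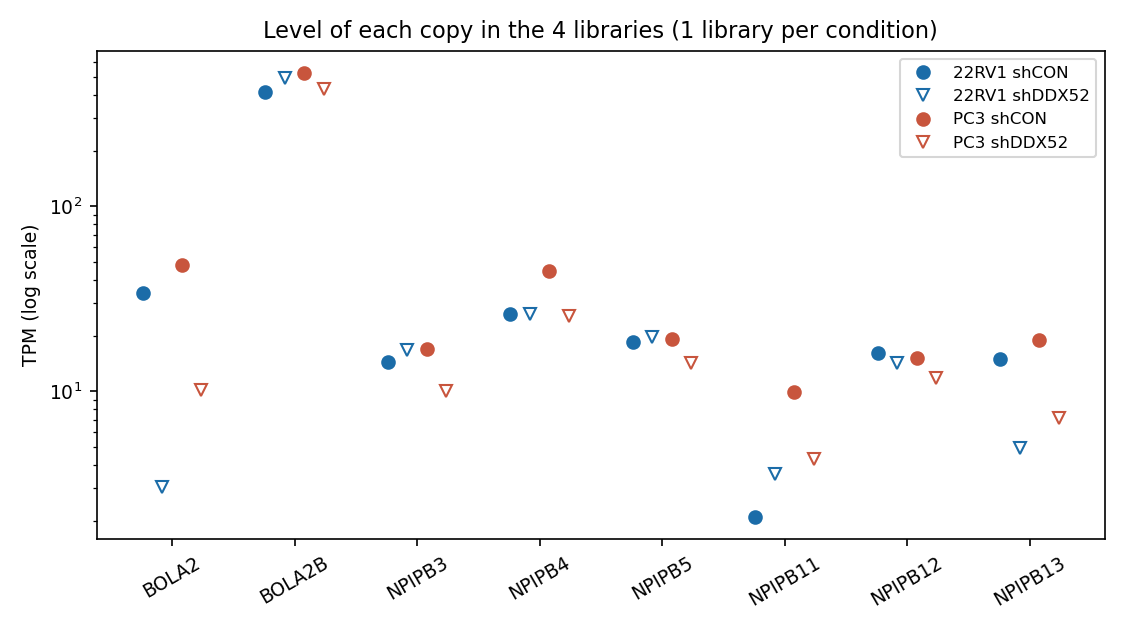
TPM (log axis) of each of the 8 genes in the 4 libraries, 1 point per library, filled circles for shCON and open triangles for shDDX52. BOLA2B lies at 413.7 TPM or higher throughout, BOLA2 spans 3.03 to 47.9 TPM, and NPIPB11 is lowest in 3 of the libraries.

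For the comparison of shDDX52 with shCON, 1 was added to each TPM and the log2 ratio of shDDX52 to shCON was taken, for genes reaching 1 TPM in at least one of the line's libraries. A gene past 2-fold on this scale was counted as called. The log2 ratio of BOLA2 was −3.11 in 22RV1, where it was left at 8.95% of control, and −2.14 in PC3, where it was left at 21.1%. For BOLA2B the log2 ratio was 0.25 in 22RV1 but −0.29 in PC3. The log2 ratio of NPIPB13 was −1.43 in 22RV1 (33.0% of control) and −1.28 in PC3 (38.0%). NPIPB12 had log2 ratios of −0.16 and −0.33, 22RV1 first. NPIPB11 stood at 0.56 and −1.04, NPIPB4 at 0.0064 and −0.79, NPIPB3 at 0.20 and −0.71, and NPIPB5 at 0.076 and −0.41.

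In 22RV1, 3 of the 8 genes were lower and 5 higher with shDDX52, 2 of them (BOLA2 and NPIPB13) lower by 2-fold or more and 0 higher by as much. Of the 14438 genes compared in this line, 2.86% were lower and 2.24% higher by 2-fold or more. In PC3 all 8 were lower, and BOLA2, NPIPB13 and NPIPB11 were at least 2-fold lower, beside 3.44% of 14262 genes lower and 2.86% higher. BOLA2 and NPIPB13 were at least 2-fold lower in both lines, as were 36 of the 12175 genes compared in both, or 0.296%. These shares stand beside the counts for scale only, since the genes were picked on this comparison. The median log2 ratio of the 8 was 0.041 in 22RV1 and −0.75 in PC3, beside −0.076 and −0.036 over all genes. At the 2-fold boundary in PC3, NPIPB11 lay just inside at −1.04 and NPIPB4 just outside at −0.79. In 22RV1, NPIPB13 lay inside the lower boundary at −1.43, with NPIPB12 the next of the lower copies at −0.16, and NPIPB11 was the copy nearest to the upper boundary at 0.56. A log2 ratio as low as that of BOLA2 was seen for 43 genes in 22RV1 and 68 in PC3, and one as low as that of NPIPB13 for 160 and 256.

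Summed over the copies, both families were within 2-fold in both lines. BOLA2 and BOLA2B together summed to 447.5 TPM (shCON) and 494.6 TPM (shDDX52) in 22RV1, and to 573.5 TPM (shCON) and 441.0 TPM (shDDX52) in PC3. The summed pair was thus higher with shDDX52 in 22RV1 (log2 ratio of 0.14) and lower in PC3 (−0.38). In TPM, BOLA2 differed by −30.8 in 22RV1 while BOLA2B differed by 78.0, and in PC3 the differences were −37.7 and −94.8. BOLA2 held 7.56% of the pair in 22RV1 shCON and 0.613% in 22RV1 shDDX52, and 8.34% and 2.29% in PC3. The log2 ratio of BOLA2 minus that of the pair was −3.26 in 22RV1 and −1.76 in PC3. With BOLA2-SMG1P6 added, the log2 ratio of the sum was 0.15 in 22RV1 and −0.36 in PC3.

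The 6 NPIPB genes summed to 92.1 TPM (shCON) and 85.2 TPM (shDDX52) in 22RV1, and to 124.6 TPM (shCON) and 72.9 TPM (shDDX52) in PC3. The log2 ratio of the sum was −0.11 in 22RV1 and −0.77 in PC3. NPIPB13 held 16.2% and 5.79% of the sum in the 22RV1 libraries, shCON first, and 15.1% and 9.83% in PC3. Its log2 ratio minus that of the sum was −1.31 in 22RV1 and −0.52 in PC3. Without NPIPB13 the other 5 summed to 77.2 and 80.3 TPM in 22RV1, a log2 ratio of 0.056, so the direction of the 22RV1 sum rested on NPIPB13. In PC3 the same 5 gave 105.8 and 65.8 TPM and a log2 ratio of −0.68.

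**Figure D3:**
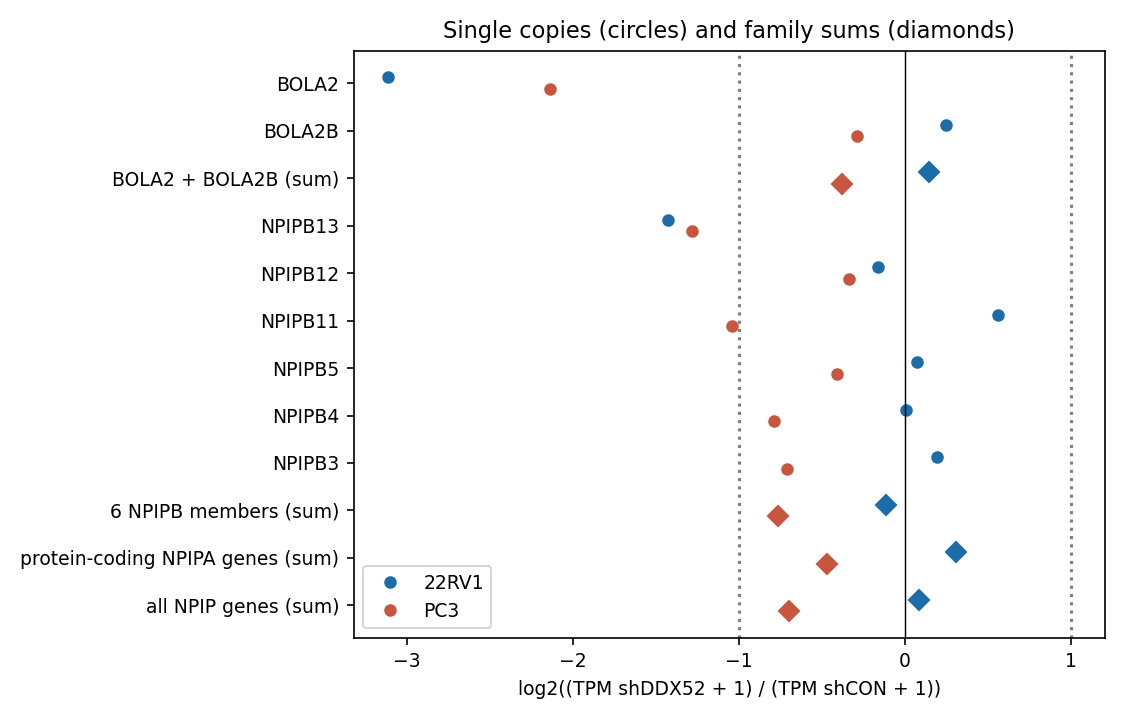
log2 ratio of shDDX52 over shCON in 22RV1 (blue) and PC3 (red) for single copies (circles) and family sums (diamonds), 1 library per condition, dotted lines at 2-fold. BOLA2 and NPIPB13 lie left of the 2-fold line in both lines, whereas the plotted sums lie between −0.77 and 0.31.

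**Figure D4:**
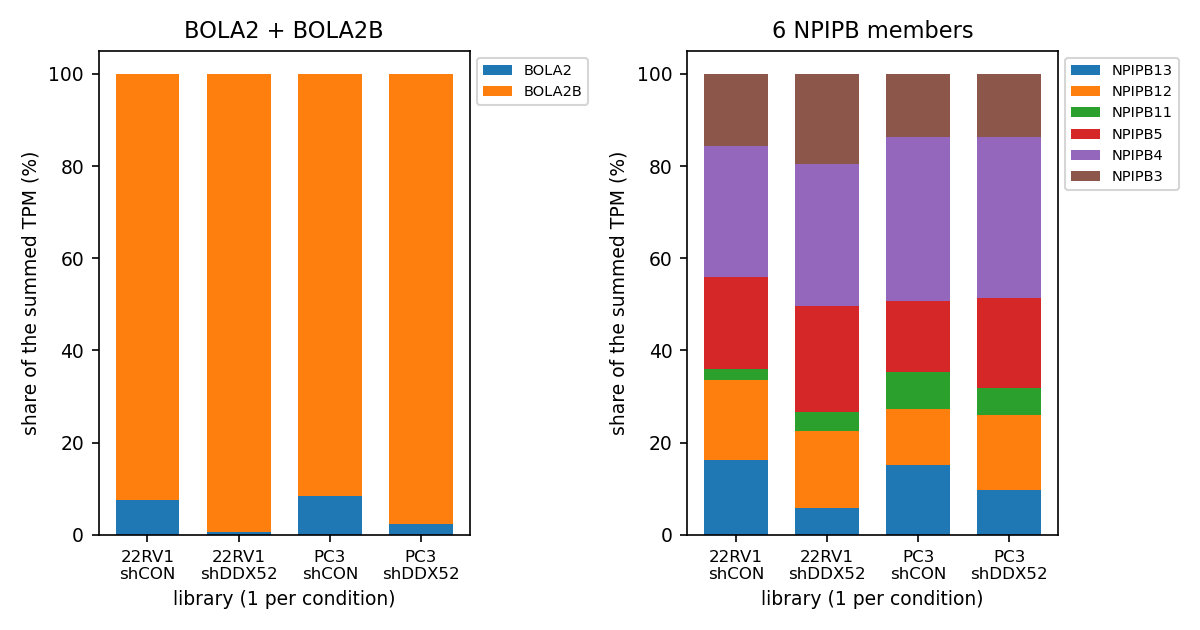
Share of the summed TPM held by each copy in the 4 libraries, for the BOLA2 pair (left) and the 6 NPIPB genes (right), in % of the sum. The BOLA2 band narrows with shDDX52 to 0.613% in 22RV1 and 2.29% in PC3, and the NPIPB13 band to 5.79% and 9.83%.

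In the wider NPIP family, the sums in PC3 lay below their control, and the direction of the sum of all NPIP genes in 22RV1 depended on 1 identifier. By symbol, 24 NPIP genes were listed: 15 reached 1 TPM in some library, 9 did not, and 2 of those 9 were listed at 0 throughout. In 22RV1, 6 of the 15 NPIP genes compared were lower and 9 higher, with a median log2 ratio of 0.076, and in PC3 13 of 14 were lower and 1 higher, with a median of −0.60. Over all genes, 58.8% in 22RV1 and 53.5% in PC3 were below 0. All 24 summed to 179.0 and 190.2 TPM in 22RV1 and 172.7 and 106.2 TPM in PC3, log2 ratios of 0.087 and −0.70. Without ENSG00000183889, which the name table calls NPIPA9 and GENCODE 29 calls otherwise, the remaining 23 summed to 156.9 and 151.1 TPM in 22RV1 and 156.6 and 95.2 TPM in PC3. The log2 ratio in 22RV1 then turned to −0.054, and that in PC3 was −0.71. The 6 NPIPB genes held 51.5% and 44.8% of the sum of all 24 in 22RV1 and 72.2% and 68.7% in PC3. The 12 protein-coding NPIPB genes together had log2 ratios of −0.092 and −0.78, and the 8 protein-coding NPIPA genes, the other branch of the family, 0.31 and −0.47. That identifier alone was 22.1 and 39.1 TPM in 22RV1, a difference of 17.03 TPM where the NPIPA sum differed by 18.3 TPM, and without it the NPIPA log2 ratios were 0.032 and −0.42.

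Single NPIPA and low NPIPB copies scattered more than the sums. NPIPA8 was 1.5 and 7.29 TPM in 22RV1, with a log2 ratio of 1.73, whereas PC3 shCON had 1.03 TPM and PC3 shDDX52 was listed at 0. NPIPB2 was 0.40 and 3.26 TPM in 22RV1 (1.61) and 2.26 and 1.04 TPM in PC3 (−0.68). The symbol NPIPA9 was paired with 2 identifiers, one of which (ENSG00000183889) had log2 ratios of 0.80 and −0.51 and the other (ENSG00000233024) −0.49 and −0.68. NPIPA1 had log2 ratios of 0.33 and −0.37, NPIPA5 of 0.093 and −0.11, NPIPA7 of −0.58 and 0.094, and the pseudogene NPIPP1 of −0.22 and −0.31. NPIPB15 was at most 1.09 TPM in any library.

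Most genes around the copies were within 2-fold, as most genes were: past 2-fold in either direction lay 5.10% of all genes compared in 22RV1 and 6.30% in PC3. On the BOLA2 side, BOLA2-SMG1P6 was 29.4 and 34.7 TPM in 22RV1 and 60.6 and 52.8 TPM in PC3, log2 ratios of 0.23 and −0.19, although it overlaps BOLA2 on the same strand. SLX1B, the gene of a structure-specific endonuclease subunit, starts inside the annotated span of BOLA2 on the other strand and had log2 ratios of 0.067 and −0.89. Its copy SLX1A, which overlaps BOLA2B in the same way, had 0.54 and −0.13. Whether the libraries kept strand is not given in the sources used here, so reads of such overlapping genes may not be separable. SULT1A4 and SULT1A3, sulfotransferase copies beyond SLX1B and SLX1A, had log2 ratios of 0.0097 and −0.44, and of −0.62 and −0.67. In the reference promoter table (RefSeq, GRCh38.p14), windows of 300 bases around the annotated starts of BOLA2 and BOLA2B shared an unbroken run of up to 273 bases.

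Of 27 single-copy genes listed between BOLA2 and BOLA2B, 22 were compared in 22RV1 (8 lower, 14 higher, median log2 ratio of 0.15) and 21 in PC3 (12 lower, 9 higher, median of −0.082). In PC3, 1 of them, GDPD3, was past 2-fold (5.56 and 2.17 TPM, log2 ratio of −1.05), and in 22RV1 none was. Of 31 other duplicated genes of the chromosome arm, 26 were compared in 22RV1, with 15 lower and 11 higher and a median of −0.044, and 22 in PC3, with 11 lower and 11 higher and a median of −0.025. Past 2-fold among them were the pseudogene SMG1P2 (1.40 and 0.19 TPM in 22RV1, log2 ratio of −1.01) and the sulfotransferase SULT1A2 (0.85 and 2.84 TPM, 1.05), with none past 2-fold in PC3. Both are low in these cells.

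**Figure D5:**
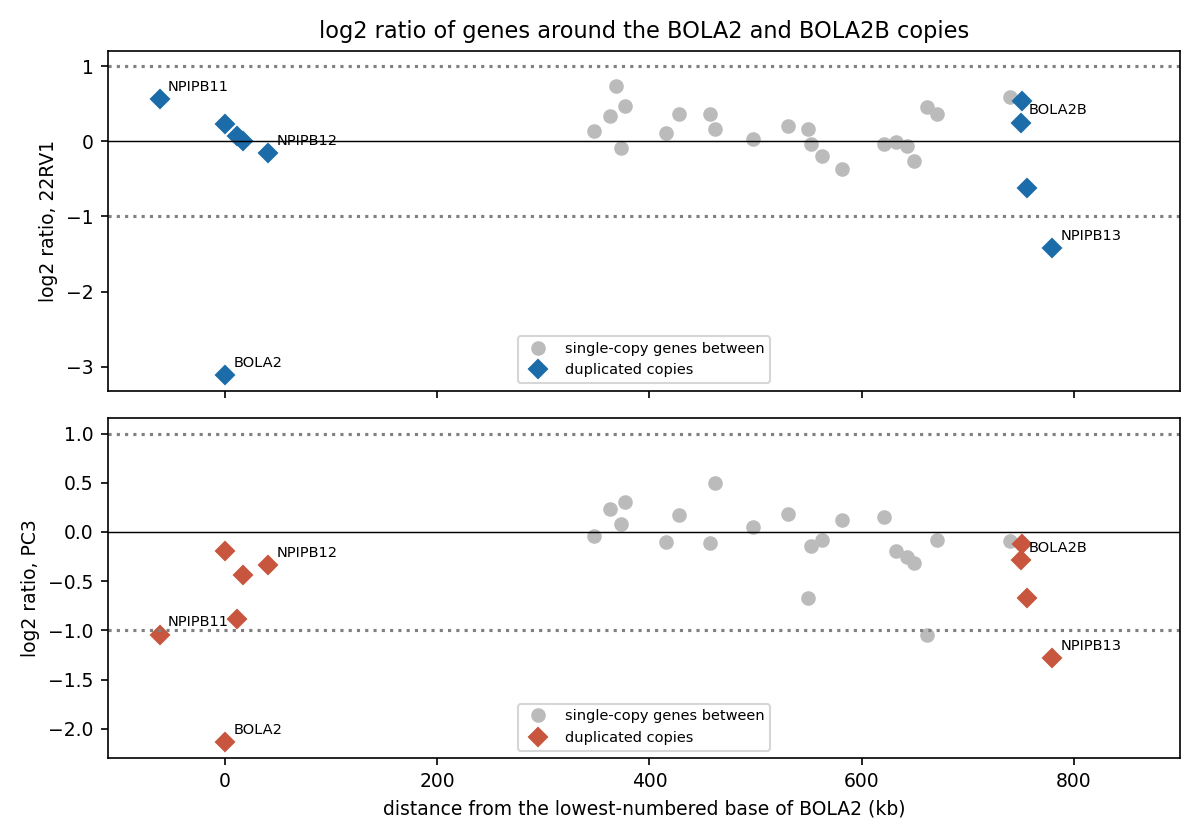
log2 ratio of shDDX52 over shCON (vertical axis) by distance in kb from the lowest-numbered base of BOLA2 (horizontal axis), 22RV1 above and PC3 below, with duplicated copies as diamonds and single-copy genes as grey circles. BOLA2 at −3.11 and −2.14 and NPIPB13 at −1.43 and −1.28 lie below the other points of their panel.

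Other gene pairs listed as near-identical, some of them on the same chromosome arm, gave a rough scale for the split between copies. Their shared sequence was not measured, and some pair a gene with a pseudogene. Of 36 pairs listed, 3 were left out because a symbol had no identifier or several, and 30 had values in each line. Of these, 0 pairs had a copy at least 2-fold lower, and in each line 1 pair had a copy past 2-fold upward: RGPD6 in 22RV1 (0.12 and 1.73 TPM, log2 ratio of 1.29) and RGPD5 in PC3 (0.67 and 4.25 TPM, 1.65). The sum of the pair was past 2-fold for 0 pairs. Among all genes compared, 22RV1 had 2.86% called lower and 2.24% called higher, and PC3 3.44% and 2.86%. With shares this small, the low counts over 30 pairs are no result about near-identical copies. Protein-coding genes with under 10% of windows in no other gene were called more often in both directions, as given under other observations. The larger gap between the log2 ratio of a copy and that of its pair was taken over copies reaching 1 TPM in the line. It had a median of 0.10 in 22RV1 and 0.24 in PC3, and reached 0.78 and 1.00, beside −3.26 and −1.76 for BOLA2 with its sign kept. Where the other copy was nearly silent the gap is near 0 by construction, as for ANAPC1 with ANAPC1P1 in 22RV1, which lowers these medians. As BOLA2 was picked for its low value, the comparison is a description only.

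The counts for the pathway that BOLA2 serves stand beside those of all genes, of which 58.8% in 22RV1 and 53.5% in PC3 were below 0 and 5.10% and 6.30% past 2-fold, so 0 past 2-fold in a short list is no result about it. GLRX3, the glutaredoxin that binds BOLA2, was 74.7 and 54.3 TPM in 22RV1 (−0.45 as log2 ratio), and in PC3 it was 114.7 and 101.0 TPM (−0.18). CIAPIN1, which receives the cluster, was 96.3 and 94.6 TPM in 22RV1 and 42.8 and 43.5 TPM in PC3. Over 10 genes of cytosolic iron-sulfur cluster assembly, 7 were lower and 3 higher in 22RV1 (median log2 ratio of −0.032), and 6 lower and 4 higher in PC3 (−0.15), none past 2-fold. The mitochondrial relatives BOLA1 and BOLA3, single genes outside these duplications, had log2 ratios of −0.44 and −0.036, and of −0.14 and −0.42. Over 18 genes of the BOLA family and mitochondrial assembly, 11 were lower and 7 higher in 22RV1 (−0.14), and 14 lower and 4 higher in PC3 (−0.16), none past 2-fold. Over 11 iron-handling genes, 9 were lower and 2 higher in 22RV1 (−0.25), and 5 lower and 6 higher in PC3 (0.076). The 1 past 2-fold was FTH1, the ferritin heavy chain, at 9231.5 and 4241.3 TPM in PC3 (−1.12) and 3212.9 and 2112.8 TPM in 22RV1 (−0.60).

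Between the control libraries, 7 of the 8 genes lay within 2-fold of each other in the 2 lines. The log2 ratio of PC3 shCON over 22RV1 shCON ran from −0.074 for NPIPB12 to 0.75 for NPIPB4, and NPIPB11 stood apart at 1.82. Over all genes, 19.9% of 15727 were at least 2-fold higher in PC3, and the median was −0.067. The share at least 2-fold lower in PC3 was not counted, so the 7 within 2-fold have no matching share beside them. The tables of the 2 lines may have been normalised apart, so levels set across them are a description.

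The genes whose 4 values followed those of a member most closely were found by the distance between log2(TPM + 1) values centred on each gene's own mean, over 10634 genes with a symbol and at least 5 TPM in some library. Nearest to BOLA2 were S100P, a calcium-binding protein gene, DDX52 and ALMS1, a centrosomal protein gene, at distances of 1.20, 1.28 and 1.36. Nearest to NPIPB13 were TIGAR, a fructose bisphosphatase gene, at 0.39, DDX52 at 0.40 and EEPD1 at 0.48. S100P had log2 ratios of −1.45 and −1.83, and TIGAR of −1.17 and −1.41. As BOLA2 and NPIPB13 were picked for being lower with shDDX52 in both lines, the search favours genes lower in both lines. DDX52, the target of the shRNA, is such a gene by design. Distances over 4 libraries are a description.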

How the data were processed

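RNA was sequenced in 4 libraries, 1 for each shRNA (shCON or shDDX52) in 22RV1 and in PC3. The authors deposited TPM for 60671 Ensembl genes in 1 table per line. The submitters' processing notes name CASAVA, HISAT2 and hg19 without versions or roles, and the quantification program and annotation release are not given in the sources used here. The identifiers include 58453 of GENCODE 29 on GRCh38, and the build behind the deposited values was not settled. Positions and sequences given here are those of GENCODE 29 on GRCh38.

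The 8 genes, the lists of other genes and the pairs were chosen with earlier results of these data known. Of the identifiers, 42020 were paired with a symbol. Log2 ratios used a pseudocount of 1 TPM, which understates the change of low genes, and a filter of 1 TPM in at least one library of a line. Sums added the TPM of copies first. No test was run, because each condition has 1 library, and depth is unknown. Shared sequence was counted as exact matches of 100-base windows on the annotated strand between GENCODE 29 transcripts, and differing bases as edit distance (edlib 1.3.9.post1). Named genes were the 8, every other NPIP gene with at least 1 TPM, BOLA1, BOLA3, BOLA2-SMG1P6, GLRX3, CIAPIN1, DDX52, list or pair genes past 2-fold and the 3 genes nearest to BOLA2 and to NPIPB13. SLX1A, SLX1B, SULT1A3 and SULT1A4, the copies next to BOLA2 and BOLA2B, were added after their values were seen. Ratios, sums and windows were tested on simulated data. Tools were Python 3.11.15, numpy 2.4.6 and pandas 2.3.3. Other pseudocounts, filters, scalings, sums of copies and window lengths were tried.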

Additional observations from a re-analysis of the deposited data

Results flagged for a closer look

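Several values pointed in opposite directions in the 2 lines, and this difference was not tested, as each condition has 1 library. The log2 ratio was 0.20 in 22RV1 and −0.71 in PC3 for NPIPB3, 0.0064 and −0.79 for NPIPB4, 0.076 and −0.41 for NPIPB5, and 0.56 and −1.04 for NPIPB11. For BOLA2B it was 0.25 and −0.29, and for BOLA2 and BOLA2B summed 0.14 and −0.38. The protein-coding NPIPA genes summed gave 0.31 and −0.47, and all NPIP genes summed gave 0.087 and −0.70. Both 22RV1 values rest on ENSG00000183889, which the name table calls NPIPA9 and GENCODE 29 calls otherwise. Without it they were 0.032 and −0.054, so that all NPIP genes summed were lower in both lines. The 22RV1 value of NPIPB4 is a difference of 0.12 TPM, so its direction carries little.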

How the results depend on the processing

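No paired analysis was possible because a single library stands for every condition. Of 226 values recomputed for 46 results, 195 stayed on the same side of 2-fold and within 1.5-fold (counts and window shares within 1.5 times), 28 moved further, 3 dropped under 2-fold and 0 reversed past 2-fold. The 3 were in PC3: NPIPB11 with a pseudocount of 5 TPM (−0.68) and with TPM rescaled to nuclear protein-coding genes (−0.95), and NPIPB13 with a pseudocount of 5 TPM (−0.97). A change of sign within 2-fold was not counted as reversed. In 22RV1 the sign changed for the 6 NPIPB genes summed without NPIPB13 (0.056) and for all NPIP genes summed without ENSG00000183889 (−0.054). It also changed for NPIPB5 between the control libraries after rescaling to nuclear protein-coding genes (−0.0063). BOLA2 lay between −3.44 and −2.27 in 22RV1 and between −2.23 and −1.81 in PC3. The pair summed ranged from 0.14 to 0.22 and from −0.38 to −0.25, and the 6 NPIPB genes from −0.11 to 0.056 and from −0.77 to −0.64. NPIPB11 in PC3 shCON over 22RV1 shCON was 1.07 with a pseudocount of 5 TPM. With windows of 50 bases, the share in no other gene was 8.83% for BOLA2, 5.36% for NPIPB13 and 0.795% for NPIPB12. At least 2-fold lower in 22RV1 were 786 genes with a pseudocount of 0.1 TPM, 90 with 5 TPM, 181 after rescaling to and counting only nuclear protein-coding genes and 169 with at least 5 TPM, and at least 2-fold higher 579, 68, 147 and 131. In PC3, 847, 115, 169 and 238 were lower under the same settings, and 733, 132, 274 and 211 were higher. Counting only nuclear protein-coding genes with TPM as deposited was an alternative chosen after seeing the data. It gave 161 lower and 119 higher in 22RV1 and 207 and 171 in PC3, so the restricted gene set alone lowers these counts. In PC3 more of these genes were lower than higher with TPM as deposited, and the reverse held after rescaling (169 lower, 274 higher). Also added after seeing the data were the NPIP sums without ENSG00000183889, at −0.054 in 22RV1 and −0.71 in PC3 for all NPIP genes and 0.032 and −0.42 for NPIPA. The causes of the other moves were not tested. Depth is unknown, so the precision of low copies cannot be given, and how reads matching several copies were assigned is not given in the sources used here.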

Other observations

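Protein-coding genes with little sequence of their own were counted past 2-fold as a description with no test. In 22RV1, of 120 compared genes with under 10% of windows in no other gene, 4.17% were lower and 5.83% higher by 2-fold or more, beside 1.32% and 0.946% of 11843 other protein-coding genes. In PC3 the shares were 9.26% and 8.33% of 108 genes, beside 1.66% and 1.38% of 11844. NPIPB3 and NPIPB12 belong to this class, whereas NPIPB13 (10.5%), BOLA2B (11.4%) and BOLA2 (15.2%) lie above its limit, as do NPIPB5 (18.8%), NPIPB4 (25.1%) and NPIPB11 (44.3%). With windows of 50 bases, NPIPB13 (5.36%), BOLA2B (8.24%) and BOLA2 (8.83%) fell under 10%, so their place depends on the window length. The 2-fold shares were not recounted at that length. The medians of the class were −0.015 in 22RV1 and −0.18 in PC3. The genes of the class share sequence among themselves and are not independent.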
